A study of Homo sapiens with 18 samples.

Results

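The genes described here are 9 genes of matrix breakdown in PANC-1 cells, 4 matrix metalloproteinases (MMP2, MMP9, MMP14 and MMP15), 3 of their tissue inhibitors (TIMP1, TIMP2 and TIMP3), urokinase (PLAU) and the urokinase receptor (PLAUR). They were listed by symbol for their function and matched to Ensembl genes, which gave 9 of the 58302 genes in the expression table. PANC-1 is an established line from a human pancreatic ductal carcinoma. The shCtrl cells carried a control shRNA stably from a lentivirus, and the shNAT10 cells carried an shRNA against NAT10 in the same way, so both groups had been transduced. RNA-seq was done on 3 libraries per group, and acRIP-seq, in which RNA fragments are pulled down with an antibody against N4-acetylcytidine (ac4C), on 3 IP and 3 input libraries per group. The comparison asks which transcripts change in level, and which carry ac4C peaks, when NAT10, the enzyme that acetylates cytidine in RNA, is depleted. The labels do not say that the libraries came from separate cultures, so p-values measure the spread between these libraries, which may be technical.

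Matrix metalloproteinases are zinc enzymes that cut collagens, laminins and other matrix proteins. MMP2 and MMP9 are the gelatinases, secreted as inactive proenzymes, while MMP14 and MMP15 are held in the membrane, and MMP14 together with TIMP2 forms the complex that activates pro-MMP2 at the cell surface. Urokinase bound to its receptor turns plasminogen into plasmin, a broad protease that also activates several metalloproteinases, and both arms are widely studied in the invasion of pancreatic carcinoma.

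NAT10 itself was listed at 31.6, 27.7 and 28.6 FPKM (reads scaled to transcript length and library depth) in the 3 shCtrl libraries and at 7.92, 8.43 and 7.90 FPKM in the 3 shNAT10 libraries, a log2 fold change of -1.84 ± 0.08 (SE, limma adjusted p = 3.9e-05). The depth of the libraries, estimated from the spacing of their FPKM values, was between 15831720 and 23521762 reads. Of 12982 genes with at least 1 FPKM in at least 3 libraries, 2699 were higher and 2751 lower in shNAT10 cells at an adjusted p under 0.05, 378 and 463 of them by more than 1 on the log2 scale, with a median log2 fold change over all tested genes of -0.01. On TPM, where 16011 genes passed the same filter, the split was 3387 higher and 2159 lower, with log2 fold changes of the 12982 genes shifted upward by a median of 0.11. The shCtrl replicate 2 library stood apart, with FPKM values that summed to 390761 against 337414 to 361185 in the others. The 5 epithelial markers KRT7, KRT8, KRT18, KRT19 and EPCAM were all present and summed to 2790 to 3750 FPKM in shCtrl and 1490 to 1670 FPKM in shNAT10 cells. The 4 keratins fell (KRT8 by 1.18 on the log2 scale, adjusted p = 0.000361) and EPCAM rose (log2 fold change 2.20, adjusted p = 6.9e-05). Of 8 fibroblast markers only COL1A1 and COL3A1 passed the filter, and DCN, LUM and FAP were at or near 0. The summed levels of the fibroblast list were 29.6 to 34.7 FPKM in shCtrl and 19.3 to 22.9 FPKM in shNAT10 cells, nearly all from COL1A1. COL1A1 fell by 0.69 and COL3A1 rose by 1.24 on the log2 scale (limma adjusted p = 0.00182 for both). COL3A1 passed the filter only through the shNAT10 libraries, at 2.04, 1.84 and 1.99 FPKM against 0.884, 0.677 and 0.767 FPKM in shCtrl. The 8 myeloid markers summed to 2.6 to 3.22 and 1.53 to 1.72 FPKM, mostly from CD14, with S100A8 at 0, and the 4 endothelial markers to at most 0.651 FPKM.

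Among the 7 genes that could be tested, 5 fell in shNAT10 cells, PLAUR, PLAU, TIMP1, MMP2 and TIMP2, and 0 rose. Over all tested genes 42.0% passed at an adjusted p under 0.05, 21.2% lower and 20.8% higher. PLAUR, PLAU and TIMP1 fell by more than 1 on the log2 scale, which 3.57% of tested genes did. The membrane-bound MMP14 and MMP15 did not pass the test, and MMP9 and TIMP3 lay below the expression filter. The median log2 fold change of the 7 genes was -0.45. In bulk RNA, fewer cells that make a transcript and less of it per cell cannot be told apart. Of the 5 epithelial markers given above, the 4 keratins moved in the same direction as the 5 genes and EPCAM in the other. Their part in the result was not tested.

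**Figure D1:**
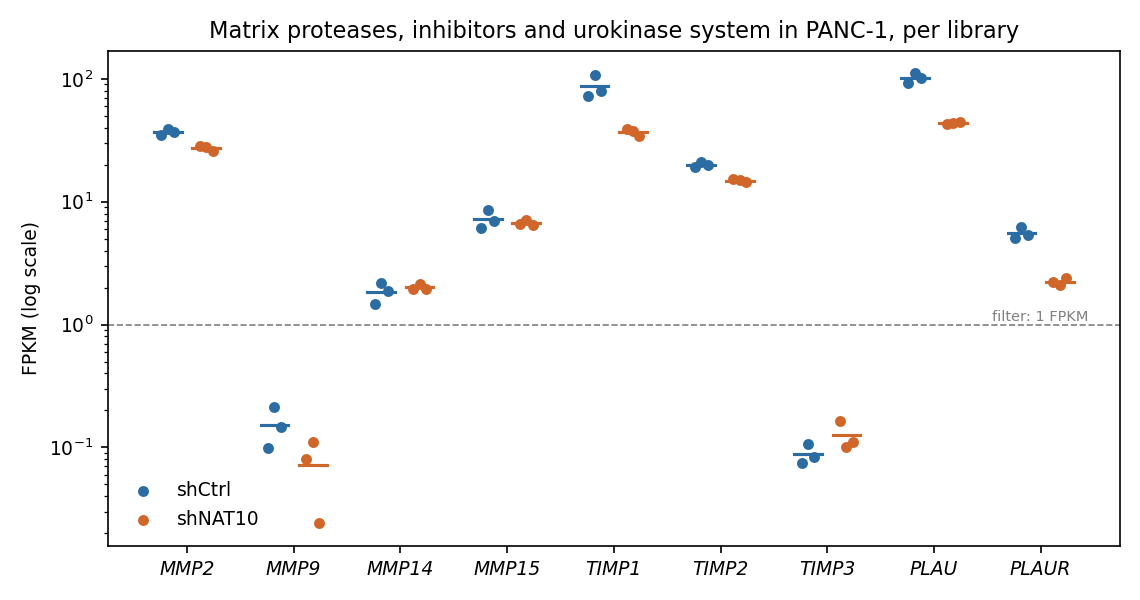
Level of each of the 9 genes in FPKM (log axis) in the 3 shCtrl (blue) and 3 shNAT10 (orange) RNA-seq libraries. Points are libraries, short bars are group means, and the dashed line is the filter of 1 FPKM. For MMP2, TIMP1, TIMP2, PLAU and PLAUR every shNAT10 point sits below every shCtrl point, while MMP9 and TIMP3 lie under the filter in all 6 libraries.

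Urokinase had the highest mean level of the 9 transcripts, and its level exceeded that of its receptor in every library. PLAU, the secreted serine protease that activates plasminogen (ENSG00000122861, chr10:73909177-73917497, plus strand), was measured at 92.2, 111 and 101 FPKM in shCtrl and at 42.9, 43.4 and 44.5 FPKM in shNAT10 libraries. The groups did not overlap, and the 3 shNAT10 libraries lay close together (SD 0.823 FPKM against 9.34 FPKM in shCtrl, n = 3 each). PLAU fell by 1.21 ± 0.08 on the log2 scale (SE, limma adjusted p = 0.000116), a level 56.8% lower, and 2.33% of all tested genes had a more negative fold change. Of the exonic bases of PLAU, 31.1% are shared with C10orf55 on the opposite strand, which was listed at 0.352 to 0.728 FPKM.

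PLAUR, the membrane-anchored receptor that holds urokinase at the cell surface (ENSG00000011422, chr19:43646095-43670547, minus strand), was measured at 5.08, 6.23 and 5.36 FPKM in shCtrl libraries. In shNAT10 libraries it was at 2.20, 2.11 and 2.39 FPKM. The groups did not overlap, and the lowest shCtrl library was above the highest shNAT10 library by more than the range within either group. PLAUR fell by 1.28 ± 0.11 on the log2 scale (limma adjusted p = 0.000285), a level 58.7% lower. Its fold change was within a standard error of those of PLAU and TIMP1, and with a pseudocount of 1 it was -1.02 against -1.19 for both, so these 3 genes were not ranked. Groups that did not overlap, with shNAT10 lower, were found for 28.6% of all tested genes. The exact permutation test of any single gene cannot go below 0.1 with 3 against 3 libraries, and it gave 0.1 for each of the 5 genes that fell.

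The ratio of PLAU to PLAUR level was 18.1, 17.8 and 18.8 in shCtrl and 19.5, 20.6 and 18.6 in shNAT10 libraries, with overlapping groups, while both transcripts were lower in shNAT10 cells.

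By the root mean square difference of centred log2 levels over the 6 libraries, the 3 genes most like PLAUR among 12981 others were LMX1B at 0.043, DPF1 at 0.0488 and P2RY11 at 0.0542. PLAU ranked 5 at 0.0556 and TIMP1 ranked 105 at 0.14. With 2 groups of libraries this distance largely restates the fold change, which was -1.28 for LMX1B, -1.34 for DPF1 and -1.25 for P2RY11. The ranks are therefore not separate evidence that these genes are linked. Among the other tested genes of the family, MMP2 ranked 1849, TIMP2 ranked 1946, MMP15 ranked 5032 and MMP14 ranked 7708.

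The stretches before the starts of PLAU, PLAUR and TIMP1 are shown because each of these 3 genes fell by more than 1 on the log2 scale. They come from the 250 bases before the RefSeq start (build GRCh38.p14), trimmed where GENCODE v29 annotates an exon of the gene. The PLAU stretch is chr10:73910882-73911103 on the plus strand, the TIMP1 stretch is chrX:47582186-47582312 on the plus strand, and the PLAUR stretch is the 30 bases chr19:43670337-43670366 on the minus strand, which lie in an annotated exon of a longer PLAUR transcript. Capitals mark a match to the AP-1 motif TGANTCA or to the GC box GGGCGG, each searched on both strands.
PLAU: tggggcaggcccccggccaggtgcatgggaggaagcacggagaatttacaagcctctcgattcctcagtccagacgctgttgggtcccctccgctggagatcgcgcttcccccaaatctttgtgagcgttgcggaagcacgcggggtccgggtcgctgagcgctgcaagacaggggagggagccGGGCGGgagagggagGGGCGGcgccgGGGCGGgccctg
TIMP1: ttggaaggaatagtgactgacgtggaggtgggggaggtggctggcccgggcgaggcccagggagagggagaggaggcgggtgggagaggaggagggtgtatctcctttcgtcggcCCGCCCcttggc
PLAUR: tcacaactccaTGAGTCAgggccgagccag
Within the whole 250 bases, the start of PLAU shown here had 3 GC boxes and no AP-1 match, TIMP1 had 2 GC boxes and no AP-1 match, and PLAUR had 1 AP-1 match, which begins 186 bases before the start, and no GC box. An AP-1 match was present in 6.57% and a GC box in 42.6% of 35116 windows of the same length, so these matches describe the letters only. A second RefSeq start of PLAU (chr10:73910360-73910609) held neither motif. Of the 9 genes 6 were matched in the promoter table, and MMP2, MMP9 and TIMP2 were not. The windows of MMP15, TIMP3 and MMP14, which did not fall past the test, held 5, 5 and 1 GC boxes and no AP-1 match.

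TIMP1 was the inhibitor with the largest fall. TIMP1, a secreted inhibitor of most soluble metalloproteinases that binds pro-MMP9 (ENSG00000102265, chrX:47582313-47586789, plus strand), was at 71.8, 108 and 80.3 FPKM in shCtrl libraries. It was at 39.0, 37.8 and 34.2 FPKM in shNAT10 libraries. The groups did not overlap, and the shCtrl group was wide because of the high value in replicate 2. TIMP1 fell by 1.21 ± 0.15 on the log2 scale (limma adjusted p = 0.00103) and by 1.04 without shCtrl replicate 2 (adjusted p = 3.91e-05).

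TIMP2, the inhibitor that also bridges pro-MMP2 to MMP14 (ENSG00000035862, chr17:78852977-78925387, minus strand), was at 19.2, 21.0 and 20 FPKM in shCtrl and at 15.3, 14.9 and 14.4 FPKM in shNAT10 libraries. The groups did not overlap and both were narrow. TIMP2 fell by 0.43 ± 0.07 on the log2 scale (limma adjusted p = 0.00297), which left 18.5% of all tested genes with a more negative fold change. TIMP2 shares 3.52% of its exonic bases with another gene on its own strand and 6.52% with a gene on the other strand.

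TIMP3, which is held in the matrix and also inhibits ADAM proteases (ENSG00000100234, chr22:32801701-32863043, plus strand), was close to absent. It was at 0.0751, 0.107 and 0.0831 FPKM in shCtrl and at 0.165, 0.101 and 0.111 FPKM in shNAT10 libraries. These levels rested on 6, 10 and 9 reads and on 12, 9 and 9 reads, with overlapping groups. The ratio of summed reads, shNAT10 over shCtrl and scaled to depth, was 1.38 with an exact 95% interval of 0.787 to 2.46, which covers counting error only. Fitted with limma voom on the reads of all genes with at least 10 reads, an analysis chosen after the data were seen, the log2 fold change was 0.44 ± 0.39 (adjusted p = 0.431), so no difference was detectable at this depth.

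MMP2 was the most abundant of the 4 metalloproteinases. MMP2, gelatinase A (ENSG00000087245, chr16:55389700-55506691, plus strand), was at 35.0, 39.3 and 37.2 FPKM in shCtrl and at 28.2, 27.8 and 25.7 FPKM in shNAT10 libraries. The groups did not overlap, and the lowest shCtrl library stood clear of the highest shNAT10 library. MMP2 fell by 0.45 ± 0.07 on the log2 scale (limma adjusted p = 0.00342), a level 26.6% lower, and 17.5% of tested genes had a more negative fold change.

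The FPKM of MMP2 divided by that of TIMP2 was 1.82, 1.87 and 1.87 in shCtrl and 1.84, 1.86 and 1.78 in shNAT10 libraries, which overlap. Divided by TIMP1 instead, MMP2 was at 0.487, 0.365 and 0.464 in shCtrl and at 0.724, 0.736 and 0.752 in shNAT10 libraries, which do not overlap. This ratio restates that TIMP1 fell more than MMP2, with log2 fold changes of -1.21 and -0.45, and is not a separate result. Only 2.37% of tested genes had a more negative fold change than TIMP1. The exact permutation test of the ratio gave 0.1, the lowest value it can reach.

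MMP14, the membrane-type enzyme that activates pro-MMP2 (ENSG00000157227, chr14:22836557-22849027, plus strand), was at 1.48, 2.16 and 1.87 FPKM in shCtrl and at 1.93, 2.15 and 1.96 FPKM in shNAT10 libraries. The shNAT10 values lay within the shCtrl range. Its log2 fold change was 0.14 ± 0.16 (limma adjusted p = 0.529), and no alternative brought it past the threshold. MMP15, a second membrane-type enzyme (ENSG00000102996, chr16:58025566-58046901, plus strand), was at 6.16, 8.57 and 6.96 FPKM in shCtrl and at 6.60, 7.09 and 6.48 FPKM in shNAT10 libraries. Here too the groups overlapped, with a log2 fold change of -0.09 ± 0.13 (limma adjusted p = 0.591) that turned to 0.02 on TPM and to 0.04 without shCtrl replicate 2.

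MMP9, gelatinase B (ENSG00000100985, chr20:46008908-46016561, plus strand), was nearly silent. It was at 0.0987, 0.212 and 0.146 FPKM in shCtrl libraries, from 4, 10 and 8 reads. It was at 0.0811, 0.11 and 0.0242 FPKM in shNAT10 libraries, from 3, 5 and 1 reads. The groups overlapped in 1 library of each, since shNAT10 replicate 2 was above shCtrl replicate 1. The depth-scaled ratio of summed reads was 0.472 with an exact 95% interval of 0.191 to 1.07, and limma voom on the reads gave a log2 fold change of -1.08 ± 0.60 (adjusted p = 0.213). The antisense gene SLC12A5-AS1, which shares 18.4% of the exonic bases of MMP9 on the other strand, was listed at 0.353 to 0.71 FPKM, above MMP9 in every library.

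Levels per transcript length ordered the 9 genes in shCtrl cells as PLAU, TIMP1, MMP2, TIMP2, MMP15, PLAUR, MMP14, MMP9 and TIMP3. The ranges of PLAU and TIMP1 overlapped over the 3 shCtrl libraries, as did those of MMP15 and PLAUR and those of MMP9 and TIMP3, so the order within these pairs was not beyond the spread. In shNAT10 cells PLAU and TIMP1 no longer overlapped in range. There PLAUR at 2.23 ± 0.143 FPKM (SD, n = 3) and MMP14 at 2.01 ± 0.121 FPKM had ranges that overlapped, with PLAUR replicate 2 at 2.11 FPKM below the highest MMP14 value of 2.15 FPKM.

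The other genes of the pathway are counted over whole lists of known function, and most of those named are the ones with the largest changes in each list. Of 18 other genes of the plasminogen system, 8 were tested, 3 fell (LYPD3, F12 and S100A10), 0 rose and 5 did not pass the test. LYPD3, a relative of PLAUR, fell by 1.11 on the log2 scale, but it passed the filter only through the shCtrl libraries. It was at 1.84, 1.78 and 1.73 FPKM in shCtrl and at 0.559, 0.941 and 0.868 FPKM in shNAT10 libraries. It could be tested in 11 of 15 alternatives. F12, coagulation factor XII, fell by 0.79 and S100A10, a plasminogen receptor subunit, by 0.45. F12 missed the threshold in 4 and S100A10 in 5 of 15 alternatives. PLG, the plasminogen gene, gave 5 reads over the 3 shCtrl and 1 read over the 3 shNAT10 libraries, and PLAT, tissue plasminogen activator, gave 28 and 10 reads, so the transcripts of the substrate and of the other activator were close to absent.

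Of 19 other metalloproteinases only MMP16 and MMP17 were tested. MMP16 did not pass, with overlapping groups and a log2 fold change of 0.39 ± 0.23 (limma adjusted p = 0.21). Its lowest adjusted p over 14 alternatives was 0.0358. MMP17, a membrane-anchored enzyme, was at 17.6, 23.4 and 19.8 FPKM in shCtrl and at 10.2, 10 and 8.94 FPKM in shNAT10 libraries, and fell by 1.04 ± 0.12 on the log2 scale (limma adjusted p = 0.000713). MMP1, interstitial collagenase, was below the filter in shCtrl cells at 0.234, 0.125 and 0.324 FPKM and was at 1.25, 0.836 and 1.18 FPKM in shNAT10 libraries. On 28 against 112 summed reads the depth-scaled ratio for MMP1 was 4.62 with an exact 95% interval of 3.03 to 7.26, and limma voom on the reads gave a log2 fold change of 2.23 ± 0.39 (adjusted p = 0.00173), a direction opposite to that of the 5 genes that fell. MMP7, matrilysin, had 50 and 22 summed reads and a log2 fold change of -0.92 (adjusted p = 0.0755). In the same fit 2 other metalloproteinases below the filter, named after their values were seen, fell. MMP25 had 20, 40 and 36 reads in shCtrl and 5, 4 and 7 reads in shNAT10 libraries (log2 fold change -2.28, adjusted p = 0.00269), and MMP28 had 22, 31 and 30 against 0, 4 and 4 reads (-3.41, adjusted p = 0.00342).

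Of 8 other genes listed with the inhibitors of metalloproteinases 3 were tested. The list holds whole families, so not each gene on it need be an inhibitor itself. SPOCK2, a proteoglycan of the testican family, fell by 1.03 on the log2 scale (limma adjusted p = 0.00678). It passed the filter only through the shCtrl libraries, at 1.37, 1.67 and 1.35 FPKM against 0.626, 0.643 and 0.727 FPKM in shNAT10. It could be tested in 11 of 15 alternatives. RECK, a membrane-anchored inhibitor of MMP2, MMP9 and MMP14, was at 6.40, 4.90 and 6.51 FPKM in shCtrl and at 5.08, 5.06 and 4.99 FPKM in shNAT10 libraries. Its log2 fold change was -0.22 (adjusted p = 0.182), and it passed the test at -0.35 when shCtrl replicate 2 was left out (adjusted p = 0.00448). TIMP4 gave 1 read over all 6 libraries.

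Of 16 activators and partners of these proteases 11 were tested, 2 rose and 3 fell. TMPRSS2, a membrane serine protease, rose by 1.10 on the log2 scale, while BSG, the inducer of metalloproteinases also called CD147, and the tetraspanin CD9 fell by 0.36 and 0.41. SPINT1, an inhibitor of membrane serine proteases, fell by 0.37 and missed the threshold in 4 of 15 alternatives. The adjusted p of BSG was 0.0482, and it missed the threshold in 10 of 14 alternatives. Of 25 ADAM and ADAMTS proteases 9 were tested, 2 rose and 3 fell. ADAM17, the sheddase of tumor necrosis factor and a target of TIMP3, fell by 1.20 and ADAM10 by 0.77, whereas ADAM19 rose by 1.03 and ADAM15 by 0.74. Of 24 cathepsins and cystatins 12 were tested, 2 rose (CTSV by 0.83 and CTSB by 0.40) and 3 fell, among them CST3, the cathepsin inhibitor cystatin C, by 0.66 and CTSF by 0.40, which missed the threshold in 4 and 2 of 15 alternatives.

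Of 19 transcription factors known to bind the promoters of MMP9, PLAU or PLAUR, 16 were tested, 3 rose and 7 fell. ETS2 was at 46.7, 46.4 and 46.0 FPKM in shCtrl and at 91.6, 90.3 and 90.8 FPKM in shNAT10 libraries, a rise of 0.97 ± 0.05 on the log2 scale (limma adjusted p = 6.8e-05). ELF3 fell by 0.82, JUNB, a subunit of AP-1, by 0.70 and ETV5 by 0.59 on the log2 scale. The 2 other tested metalloproteinases, MMP17 and MMP16, had log2 fold changes of opposite sign, with a median of -0.32. The median log2 fold change was -0.22 over the 3 tested genes of the inhibitor list and -0.14 over the plasminogen list. It was -0.02 over the partners, -0.25 over the ADAM list, -0.19 over the cathepsins and -0.11 over the transcription factors. Over all tested genes it was -0.01.

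**Figure D2:**
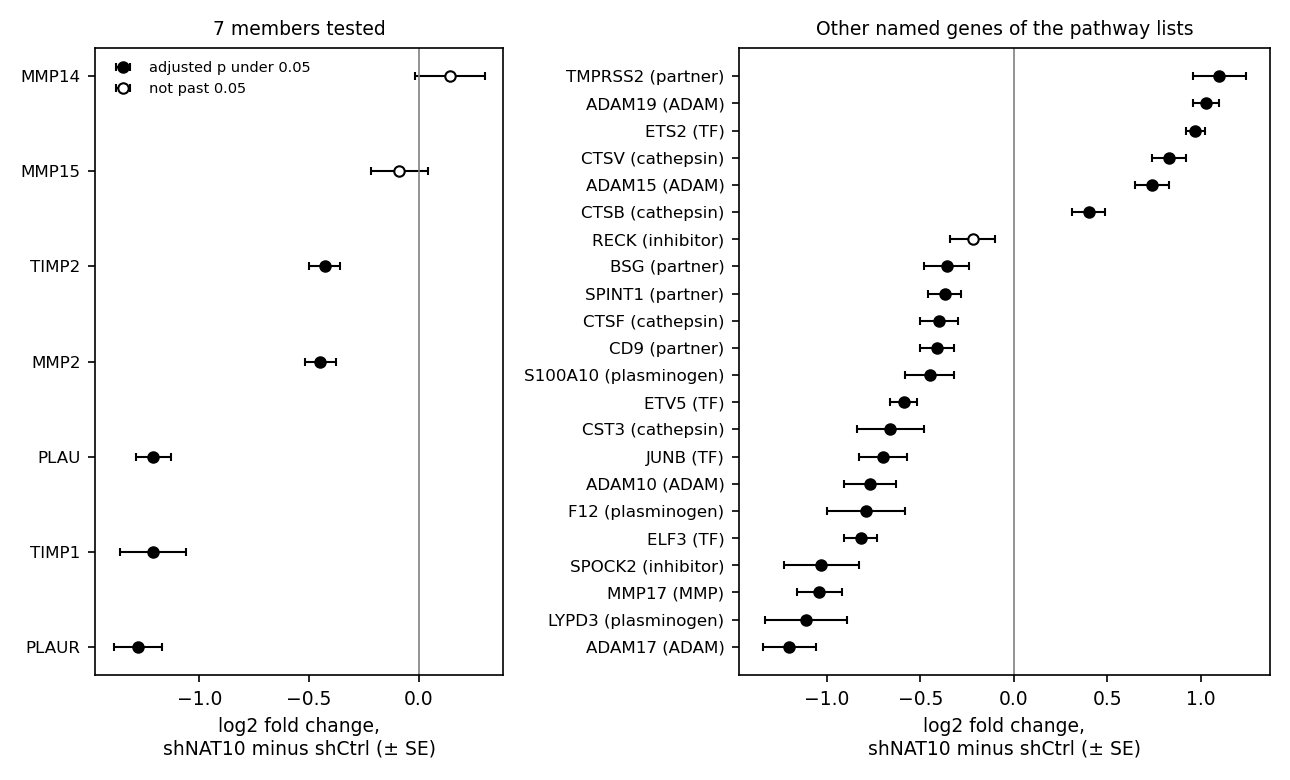
Log2 fold change, shNAT10 minus shCtrl, on log2 of FPKM plus 0.1, with its standard error, for the 7 tested genes of the family (left) and the other named genes of the pathway lists (right). Filled points have an adjusted p under 0.05. PLAUR at -1.28, PLAU at -1.21 and TIMP1 at -1.21 stand apart from TIMP2 at -0.43 and MMP2 at -0.45, and the bars of MMP14 and MMP15 cross 0.

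The acRIP-seq peak list of shCtrl cells has 16892 peaks, which fall on 8244 genes, and that of shNAT10 cells has 15813 peaks on 7979 genes. The 9 genes carried 23 peaks in the shCtrl list and 22 in the shNAT10 list, on the same 7 genes. PLAU and MMP15 carried none in either list. Each list is pooled over a group, so there is no replicate and no test between the lists. Fold enrichment is a ratio of IP to input and does not give the share of a transcript that is acetylated. Median fold enrichment over the list was 49.3 in shCtrl and 45.2 in shNAT10, and 51.7 and 75.7 over the peaks of the 9 genes.

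Of the 23 peaks in the shCtrl list 13 shared at least 1 base on the same strand with a peak of the shNAT10 list, which is 56.5% against 25.6% of the whole list. Of the 22 peaks in the shNAT10 list 12 did, which is 54.5% against 27.4%. A long peak shares a base more easily, and peak length was not matched to the list. Some shared peaks were long, with 2757 and 2727 bases on MMP14 and 1227 bases on PLAUR in shNAT10. All 3 MMP14 peaks of each list were shared. The part of peak length in these shares was not tested. By bases, 49.7% of the shCtrl peaks lay in coding sequence, 35.9% in 3′ UTR and 2.9% in 5′ UTR of the transcript with the longest coding sequence. The remaining 11.5% lay on introns or on exons of other transcripts. In the shNAT10 list the corresponding values were 47.9%, 33.0%, 2.04% and 17.1%.

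**Figure D3:**
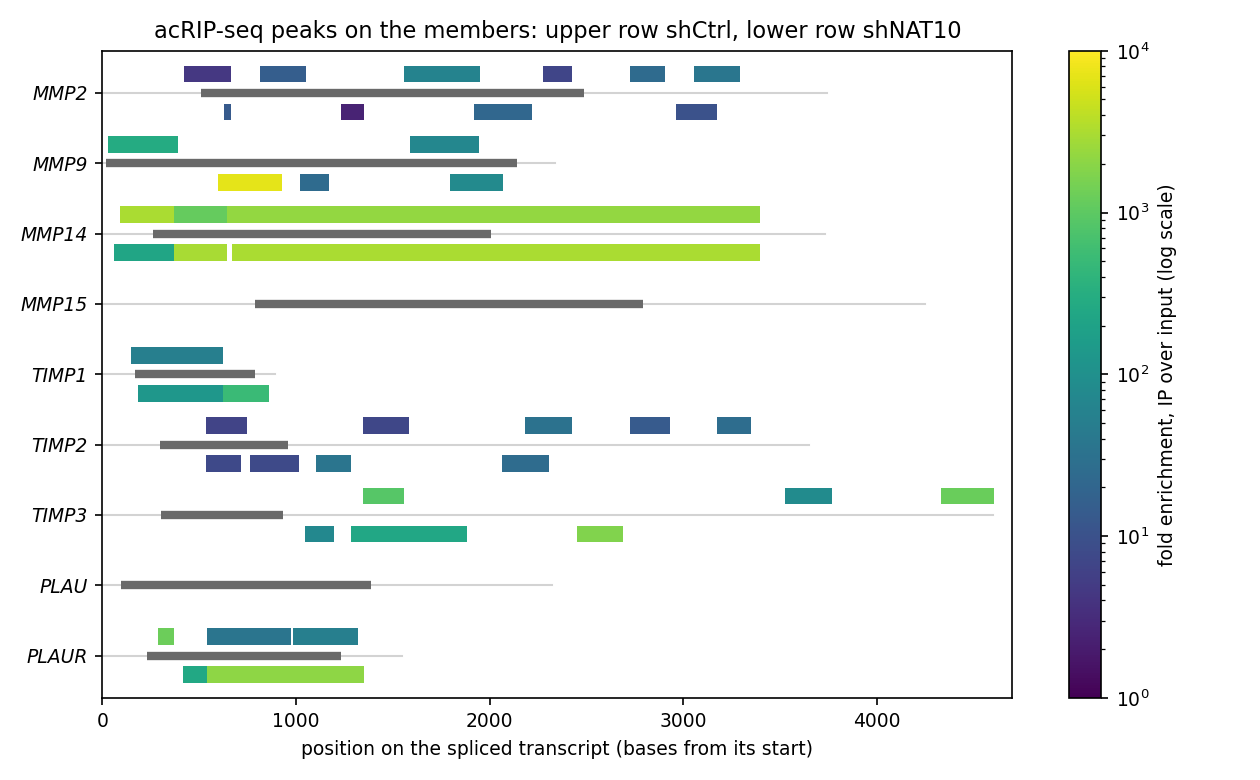
acRIP-seq peaks along the spliced transcript of each of the 9 genes, in bases from its start. The thin line is the transcript, the thick line its coding sequence, the upper boxes the shCtrl peaks and the lower boxes the shNAT10 peaks, colored by fold enrichment of IP over input (log scale). MMP14 is covered over nearly its whole length in both lists, and PLAU and MMP15 have no box. The shNAT10 peak of TIMP2 that lies off its transcript is not drawn.

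MMP14 was the gene most covered by peaks. Its 3 shCtrl peaks had fold enrichments of 3120, 1150 and 2280 from the 5′ to the 3′ end, and its 3 shNAT10 peaks had 225, 2960 and 3060. Together they covered 88.5% and 88.6% of the transcript, and 97.6% of the shCtrl peak bases were shared. The strongest peak of MMP14 ranked 120 in the shCtrl list and 157 in the shNAT10 list. At 1.84 and 2.01 FPKM, MMP14 is a gene of low level, and of protein-coding genes between 1 and 3 FPKM 34.2% carried a shCtrl peak and 33.9% a shNAT10 peak.

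PLAUR carried 3 shCtrl peaks with fold enrichments of 1280, 35.5 and 51.7 and 2 shNAT10 peaks with 254 and 2100. The shNAT10 peak of 2100, 1 call of 1227 bases, ranked 443 in its list and shares bases with the shCtrl peaks of 35.5 and 51.7. Of the PLAUR peak bases 78.9% in the shCtrl list and 63.8% in the shNAT10 list were shared. TIMP1 carried 1 shCtrl peak with a fold enrichment of 51.9 and 2 shNAT10 peaks with 131 and 508. The shNAT10 peak of 131 shares bases with the shCtrl peak, and the peak of 508, toward the 3′ end, does not. Fold enrichment was higher for genes of lower level. In the shNAT10 list its median was 7.13 for protein-coding genes between 50 and 200 FPKM and 25.1 between 10 and 50 FPKM. Between 3 and 10 FPKM it was 111, and between 1 and 3 FPKM 270. Both PLAUR and TIMP1 had lower levels in shNAT10 cells, and the part of level in these values was not tested.

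MMP2 carried 6 shCtrl peaks with fold enrichments between 4.45 and 61.1 and 4 shNAT10 peaks between 2.39 and 20.9. The shCtrl peaks covered 38.5% and the shNAT10 peaks 17.7% of its transcript, with 3 peaks of each list sharing bases with the other. TIMP2 carried 5 peaks in each list, with fold enrichments between 6.27 and 31.8 in shCtrl and between 7.51 and 45.2 in shNAT10. The shNAT10 peak of 45.2 lay with all of its 240 bases off the transcript used here. The highest shNAT10 peak on that transcript had a fold enrichment of 35.8. In the shCtrl list 4 of the 5 peaks lay in the 3′ UTR. At these levels, 10 to 50 FPKM, 66.3% of protein-coding genes carried a shCtrl peak, and the median fold enrichment of their peaks was 26.7.

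MMP9 and TIMP3 carried peaks although their transcripts were nearly absent from the RNA-seq. MMP9 had 2 shCtrl peaks with fold enrichments of 274 and 70.6 and 3 shNAT10 peaks with 6890, 24.4 and 78.3, all in coding sequence. The peak of 6890 ranked 10 of 15813 in its list. TIMP3 had 3 peaks in each list, at 883, 81.1 and 1200 in shCtrl and at 73.1, 240 and 1730 in shNAT10, all in its 3′ UTR. Of 1176 protein-coding genes between 0.05 and 0.2 FPKM, 17.9% carried a shCtrl peak and 19.4% a shNAT10 peak, with median fold enrichments of 396 and 310. Peaks were also listed on 4 of the 8 myeloid markers in the shCtrl list and on 5 in the shNAT10 list, among them PTPRC, which was at or near 0 FPKM. The part of low input or of other RNA in these peaks was not tested.

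PLAU and MMP15 were above the expression filter and carried no peak in either list. PLAU had the highest level of the 9 genes and no peak, while 70.4% and 69.5% of protein-coding genes between 50 and 200 FPKM carried a peak in the shCtrl and the shNAT10 list. MMP15 had none either, at 7.23 and 6.72 FPKM. Of protein-coding genes between 3 and 10 FPKM, 49.5% carried a shCtrl peak and 47.1% a shNAT10 peak. Absence of a peak was thus about as common as presence at this level. Of the 5 genes that fell, PLAUR, TIMP1, MMP2 and TIMP2 carried peaks in both lists and PLAU carried none. Of the 2 tested genes that did not pass, MMP14 carried peaks and MMP15 none. A link between peaks and changes in level was not tested.

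**Figure D4:**
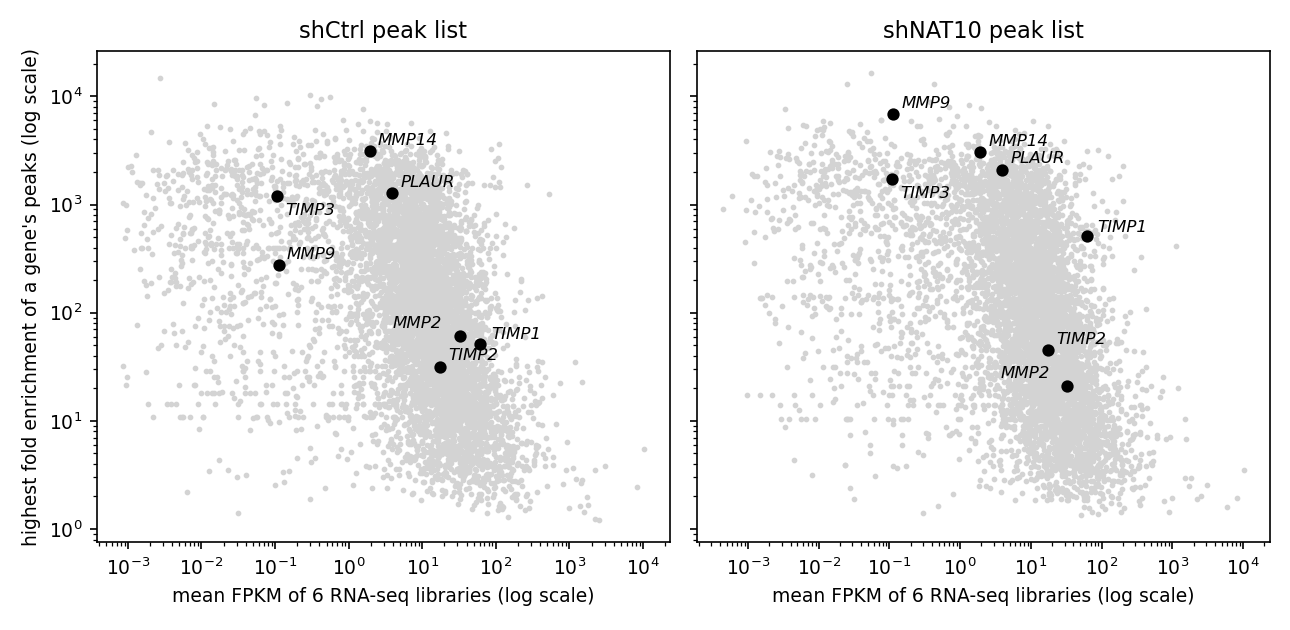
Highest fold enrichment of a gene's peaks against its mean FPKM over the 6 RNA-seq libraries (both axes log), for the protein-coding genes of the shCtrl list (left) and the shNAT10 list (right). Black points are the 7 genes of the family with a peak. MMP9 and TIMP3 lie at about 0.1 FPKM with high fold enrichment, and TIMP2 and MMP2 lie lower on the axis of fold enrichment at higher FPKM.

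The coding stretches that lay under peaks in both lists are shown for MMP14, MMP9, TIMP1, TIMP2 and PLAUR, as the place on each transcript that both pull-downs share. Each is the longest run of coding bases on 1 exon, at most 300 bases, read from GENCODE v29 transcripts (GRCh38). The stretches are chr14:22842436-22842717 (exon 4 of MMP14, plus strand), chr20:46014151-46014274 (exon 11 of MMP9, plus strand), chrX:47585205-47585331 (the whole of exon 4 of TIMP1, plus strand), chr17:78870898-78871000 (exon 3 of TIMP2, minus strand) and chr19:43648893-43649143 (exon 7 of PLAUR, minus strand). Capitals mark every match to CNN repeated 4 times without a gap, a pattern described around ac4C sites in mRNA, on the transcribed strand only. The longest such run of MMP2, 33 bases of exon 1 at chr16:55479600-55479632, held no match and is not printed.
MMP14: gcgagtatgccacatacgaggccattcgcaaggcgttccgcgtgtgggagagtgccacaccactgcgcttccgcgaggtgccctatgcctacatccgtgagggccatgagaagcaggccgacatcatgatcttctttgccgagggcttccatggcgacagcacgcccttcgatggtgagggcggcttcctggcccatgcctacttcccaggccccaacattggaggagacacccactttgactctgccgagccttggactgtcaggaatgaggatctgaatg
MMP9: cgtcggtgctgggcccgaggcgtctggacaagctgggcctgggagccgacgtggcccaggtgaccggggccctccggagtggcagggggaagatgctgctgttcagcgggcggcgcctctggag
TIMP1: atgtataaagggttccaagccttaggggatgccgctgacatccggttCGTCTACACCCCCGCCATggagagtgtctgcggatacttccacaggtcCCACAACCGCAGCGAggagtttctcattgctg
TIMP2: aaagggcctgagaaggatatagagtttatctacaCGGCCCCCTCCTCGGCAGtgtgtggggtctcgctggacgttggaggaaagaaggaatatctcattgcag
PLAUR: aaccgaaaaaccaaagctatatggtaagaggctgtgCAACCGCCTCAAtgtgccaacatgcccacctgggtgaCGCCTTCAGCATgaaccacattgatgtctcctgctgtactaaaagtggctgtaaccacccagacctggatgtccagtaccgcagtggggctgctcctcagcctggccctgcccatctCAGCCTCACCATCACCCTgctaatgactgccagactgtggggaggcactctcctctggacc
The pattern was found 5 times, counting overlapping matches, in the PLAUR stretch of 251 bases, 5 times in the TIMP1 stretch of 127 bases and 3 times in the TIMP2 stretch of 103 bases. It was not found in the MMP14 stretch of 282 bases or in the MMP9 stretch of 124 bases, although the MMP9 stretch was richest in G and C at 73.4%. Of coding windows of the same lengths over all protein-coding genes, 65.4%, 46.0%, 40.2%, 68.4% and 45.4% held at least 1 match, in the order PLAUR, TIMP1, TIMP2, MMP14 and MMP9. The pattern is thus common in coding sequence, and its presence or absence here is a description of the letters.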

How the data were processed

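RNA-seq of 3 shCtrl and 3 shNAT10 libraries was deposited by the authors as FPKM, counted on Ensembl genes. The submitters' processing notes name HISAT2 2, HTSeq 0.11.0 and DESeq2 1.22.2 and the build hg38. For acRIP-seq the authors deposited 1 peak list per group, with a fold enrichment as a ratio, a p-value and a logarithm of p used here as a score. The peak caller is not given in the sources used here.

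Differences were fitted in limma 3.58.1 (R 4.3.3) on log2(FPKM + 0.1), letting the prior variance follow the mean level, and p-values were adjusted by the Benjamini-Hochberg method, for genes with at least 1 FPKM in at least 3 libraries. A fold change on this scale understates the change of low genes. Whole reads were recovered from the FPKM steps with the length of the longest transcript (GENCODE v29), and 97.3% of values above 0 lay within 0.05 of a whole number. Of the 58302 genes in the table, 58039 were matched to the annotation. The strand setting of the counting is not given in the sources used here. Intervals and reads cover counting error only. The genes named are the 9 genes, NAT10, up to 4 genes with the largest change past the test in each list, 6 further pathway genes given by name (PLAT, PLG, TIMP4, RECK, MMP1 and MMP7), the epithelial and other cell markers, and the 3 genes most like the member with the largest change. A gene of the lists is not reported here. The members and lists were chosen with earlier results of these data known. The main comparisons were repeated with another pseudocount, filter, scaling and weighting, on recovered reads, with a replicate block, and without each library. The code was tested on simulated data. Python 3.11.15, numpy 2.4.6, pandas 2.3.3, scipy 1.17.1 and matplotlib 3.10.9 were used.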

Additional observations from a re-analysis of the deposited data

How the results depend on the processing

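The 5 genes that fell, PLAUR, PLAU, TIMP1, MMP2 and TIMP2, passed the test with the same sign in all 15 alternatives, and 0 of the 7 tested genes rose in any. Over those alternatives the log2 fold change was -1.34 to -1.02 for PLAUR, -1.28 to -1.10 for PLAU, -1.33 to -1.04 for TIMP1, -0.49 to -0.34 for MMP2 and -0.46 to -0.32 for TIMP2. MMP14 was tested in 14 of them and did not pass. MMP15 changed sign to 0.02 on TPM and, without single libraries, ranged from -0.20 to 0.04, with the change of sign when shCtrl replicate 2 was left out. The cause was not tested.

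The total of genes called, 5450, ranged from 3502 to 6493 when single libraries were left out, and was 3609, 3613 and 3502 without shNAT10 replicate 1, 2 and 3. The cause was not tested. The labels give both groups the same replicate numbers. The correlations of same-numbered libraries were -0.0432, 0.0643 and 0.107, and those of differently numbered libraries ran from -0.122 to 0.0632. These values cannot show whether same-numbered libraries shared a culture or a preparation, which the labels do not state. With a replicate block 2524 genes were higher and 2603 lower, and 0 and 5 of the 7 genes.

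Of the 23 shCtrl and 22 shNAT10 peaks on the 9 genes, 12 and 13 were in the upper 50% of their list by fold enrichment, of which 7 and 7 shared a base. In the 50% with the lowest p-values there were 19 and 13. With overlap required over 50% or more of both peaks, 7 and 7 were shared. The share of the whole list was computed only for an overlap of at least 1 base. These stricter counts therefore cannot show whether the 9 genes still exceed the list. For MMP9 and TIMP3, without a filter the FPKM fit gave -0.56 (adjusted p = 0.33) and 0.25 (adjusted p = 0.561). Depth limits both, with at most 12 reads per library.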
